A study of Drosophila melanogaster with 12 samples.

Results

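The genes described here encode the proteins that store transmitter in synaptic vesicles and fuse those vesicles with the presynaptic membrane. The 10 genes were chosen by name (*Syt1*, *brp*, *nSyb*, *Syx1A*, *cpx*, *Snap25*, *VGlut*, *ChAT*, *VAChT* and *cac*) from a table of 17521 genes. Of these, 9 had a row in the table, and *VAChT* was not analysed here. The *Drosophila* samples numbered 12 and formed 5 groups. The tumours were homozygous *ph505* cells, in which neither *ph-p* nor *ph-d* functions, a pair of neighbouring genes for Polyhomeotic, a protein of the Polycomb group. They arose as GFP-marked MARCM clones in larval eye-antennal discs, through a Flp recombinase driven by *eyeless*, and were passed weekly through the abdomens of wild-type adult hosts until 4, 8 or 14 weeks of age, with 2 tumours at each age. The metamorphed cells were *ph505* cells of the same kind of clone, taken from adult flies after metamorphosis, with 3 samples. The recombinase was also active in leg and genital discs, so the metamorphed cells need not all stem from the eye. The control was 3 samples of wild-type eye discs of the 3rd larval instar that had spent 1 day in an adult host. The series holds no wild-type counterpart of the metamorphed cells, so genotype and development differ together between them and the control. The authors state that RNA for sequencing was collected independently 2 or 3 times. The labels do not say whether samples of a group came from separate animals, so p-values measure only the spread between these samples.

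Release of transmitter rests on a small set of proteins that almost every synapse shares. A calcium channel opens at the active zone, calcium binds synaptotagmin on the vesicle, and a bundle of 3 SNARE proteins, one on the vesicle and the others on the plasma membrane, draws both membranes together while complexin holds the bundle ready. Before that, transmitter is made by enzymes such as choline acetyltransferase and pumped into the vesicle by a transporter. In the fly eye disc, photoreceptors begin to differentiate in the larva and start to express parts of this machinery before their synapses form. Several of the proteins have relatives that carry membrane traffic in every cell.

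Depth differed strongly between samples. Reads on genes ranged between 16619078 and 24144498 in the tumours, between 66046651 and 81447816 in the metamorphed cells, and between 2072498 and 26137216 in the control, where replicate 1 was the shallowest library of all. Levels are given as CPM, reads scaled to 1000000 reads of the normalised library, and 3 reads stood for 0.042 to 1.18 CPM depending on the library. Metamorphed libraries were sequenced on a different instrument from all others, and the effects of instrument and condition cannot be told apart. Markers of the eye-antennal disc summed to between 1200 and 1491 CPM in the control, where all 7 had reads. The opsin gene *ninaE*, a marker of adult photoreceptors, had 0 reads in every tumour, 698, 1245 and 213 CPM in the metamorphed cells, and at most 1.05 CPM in the control.

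The machinery did not move as one in tumours. *Syt1*, *nSyb*, *brp* and *cpx* fell, with log2 fold changes of -5.42, -4.88, -2.96 and -3.01, *Syx1A* rose by 0.80, and *Snap25* and *cac*, at 28.9 and 41.9 CPM on average in tumours against 11.7 and 17.4 CPM in the control, did not pass the test. Of the 9 genes, 5 were called in tumours against control (limma on log2(CPM + 1), Benjamini-Hochberg adjusted p under 0.05), 1 higher and 4 lower. Over all 10177 genes tested, 36% were called in this comparison, 14.4% higher and 21.6% lower. In bulk RNA, fewer cells of a type and less RNA per cell cannot be told apart.

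**Figure D1:**
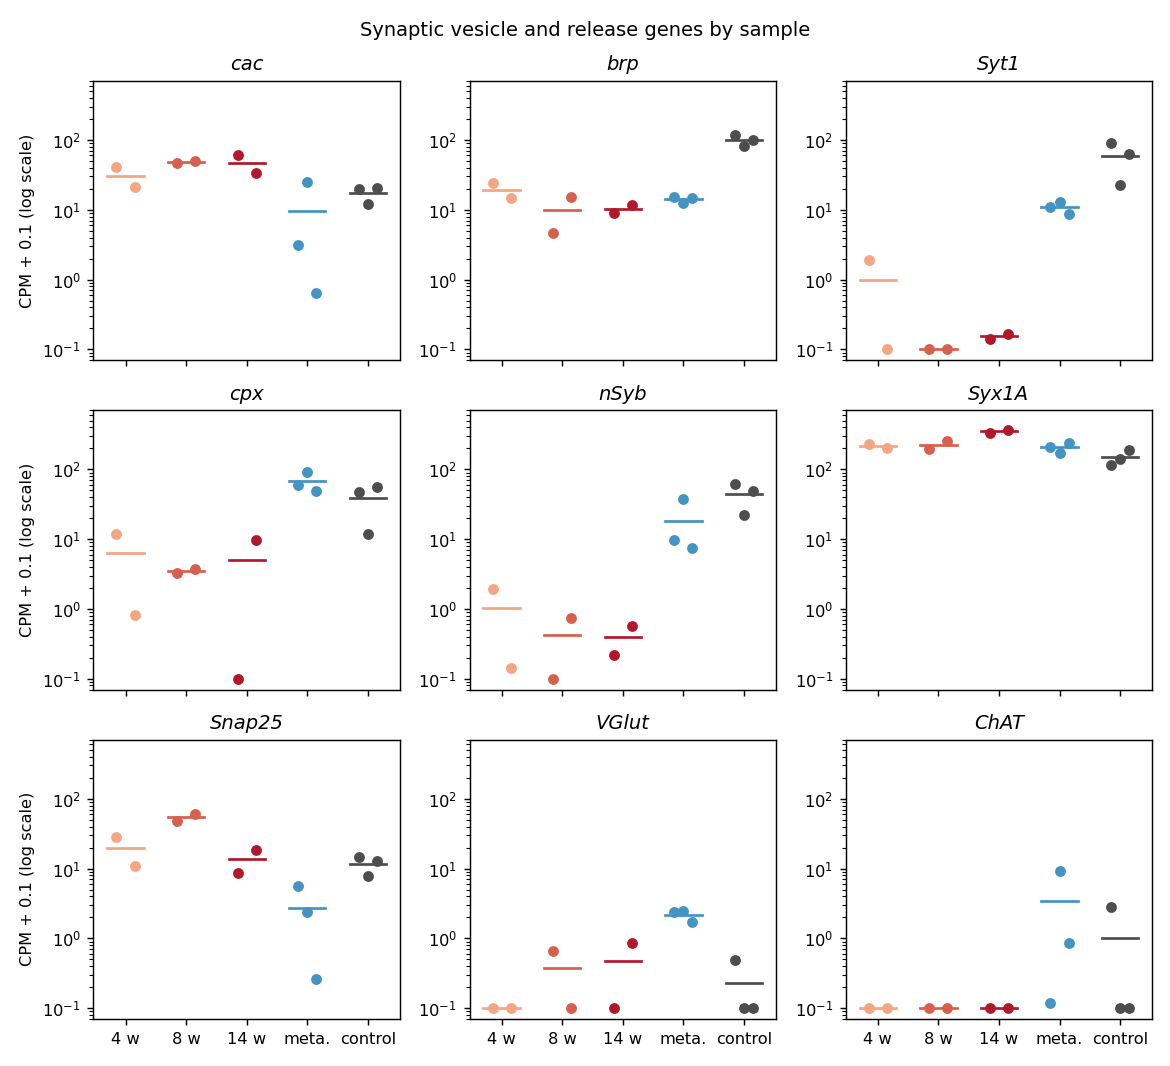
CPM plus 0.1, on a log axis, of 9 synaptic vesicle and release genes in each of 12 samples (points), with the group mean as a line, for tumours of 4, 8 and 14 weeks (4 w, 8 w, 14 w), metamorphed cells (meta.) and control. *Syt1* and *nSyb* lie near the bottom of the axis in nearly all tumours, *Syx1A* stays above 100 CPM in every sample, and *ChAT* has 0 reads in all 6 tumours.

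*Syt1* encodes synaptotagmin 1, the calcium sensor of fast release (FBgn0004242, dm6 chromosome 2L, 2772327 to 2799979, minus strand). It had 1.80 and 0 CPM in 4-week tumours, 0 and 0 CPM in 8-week tumours and 0.0404 and 0.0677 CPM in 14-week tumours, 10.8, 12.7 and 8.70 CPM in metamorphed cells, and 91.3, 22.3 and 62.7 CPM in the control. The 3 groups did not overlap, with every metamorphed sample above every tumour and below every control. In reads, replicate 1 of the 4-week tumours held 44 and the 5 other tumours together 2. The log2 fold change was -5.42 (SE 0.51, limma adjusted p = 5.26e-06) in tumours against control, -2.15 (SE 0.59, adjusted p = 0.0109) in metamorphed cells against control and 3.27 (SE 0.51, adjusted p = 0.000145) in metamorphed cells against tumours. With a pseudocount of 0.1 CPM in place of 1, the difference between metamorphed cells and control kept its size at -2.23 and lost its call (adjusted p = 0.106), as it did on the log2 CPM as deposited (-2.24, adjusted p = 0.141).

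Of 5 other synaptotagmin genes tested, 3 fell in tumours (*Syt4*, *Syt7* and *Sytbeta*, the last tested only through its level in the control), and *Syt12* (0.24, limma adjusted p = 0.753) and *Syt14* (-1.58, adjusted p = 0.128) did not pass. *Syt4*, which in flies acts in retrograde signalling at the neuromuscular junction, reached at most 0.271 CPM in any tumour, had 4.03, 13.6 and 0.0985 CPM in metamorphed cells, and 177, 79.0 and 181 CPM in the control. Its log2 fold changes were -7.00, -4.99 and 2.00 in the same order of comparisons, and all passed the limma test (adjusted p = 5.15e-06, 0.000164 and 0.0236). *Syt7* fell by 2.77 in tumours and by 2.02 in metamorphed cells on the log2 scale against control (limma adjusted p = 0.003 and 0.0312).

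*brp* encodes Bruchpilot, the scaffold of the dense body at the active zone (FBgn0259246, chromosome arm 2R). It had 24.3 and 14.5 CPM in 4-week tumours, 4.56 and 15.2 CPM in 8-week tumours and 8.85 and 11.6 CPM in 14-week tumours, 15.2, 12.4 and 14.7 CPM in metamorphed cells, and 117, 81.7 and 101 CPM in the control. Unlike *Syt1*, it retained reads in every tumour, and tumours and metamorphed cells overlapped while both lay below the control. Its log2 fold change was -2.96 (SE 0.38, limma adjusted p = 7.35e-05) in tumours and -2.73 (SE 0.44, adjusted p = 0.000276) in metamorphed cells, each against control. Metamorphed cells and tumours differed by 0.23 (SE 0.38, adjusted p = 0.651), a difference that did not pass the test.

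*cpx* encodes complexin, which clamps the assembled SNARE bundle until calcium arrives (FBgn0041605, 3R, 4280221 to 4304604, plus strand). It had 11.7 and 0.712 CPM in 4-week tumours, 3.17 and 3.68 CPM in 8-week tumours and 0 and 9.75 CPM in 14-week tumours, 59.6, 92.7 and 49.7 CPM in metamorphed cells, and 47.8, 11.8 and 55.2 CPM in the control. All 6 tumours lay below the lowest control, by a narrow margin at the top, and metamorphed cells and control overlapped. Tumours differed from the control by a log2 fold change of -3.01 (SE 0.78, limma adjusted p = 0.00942) and metamorphed cells from tumours by 4.02 (SE 0.78, adjusted p = 0.000821). Metamorphed cells exceeded the control by 1.01 (SE 0.90, adjusted p = 0.401), which did not pass. The call in tumours was lost without control replicate 1 (-2.72, adjusted p = 0.0608) or without control replicate 3 (-2.62, adjusted p = 0.0638), and with the replicate block and the transcript length trend removed (-1.97, adjusted p = 0.104).

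*nSyb* encodes neuronal synaptobrevin, the SNARE of the synaptic vesicle (FBgn0013342, 3L, 1630348 to 1637752, minus strand). It had 1.84 and 0.0445 CPM in 4-week tumours, 0 and 0.647 CPM in 8-week tumours and 0.121 and 0.474 CPM in 14-week tumours, 9.76, 37.7 and 7.32 CPM in metamorphed cells, and 61.9, 22.4 and 48.5 CPM in the control. Every tumour lay below every other sample, and of the metamorphed samples replicate 2 lay within the range of the control. The log2 fold change was -4.88 (SE 0.58, limma adjusted p = 3.61e-05) in tumours against control and 3.42 (SE 0.58, adjusted p = 0.000284) in metamorphed cells against tumours. In metamorphed cells against control it was -1.46 (SE 0.67, adjusted p = 0.0994), and it passed without metamorphed replicate 2 (-2.14, adjusted p = 0.0199) and on CPM of total reads (-1.95, adjusted p = 0.0328).

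*Syb*, the synaptobrevin of general membrane traffic, moved the other way. It ranged between 690 and 1521 CPM in tumours and between 594 and 691 CPM in metamorphed cells, against 248 to 399 CPM in the control, with no overlap between the control and the other groups. Its log2 fold change was 1.75 (limma adjusted p = 0.000165) in tumours and 1.07 (adjusted p = 0.00991) in metamorphed cells against control. Per kb of exon, *nSyb* made up at most 0.0537% of both genes together in tumours and 0.321% to 1.89% in metamorphed cells, against 2.67% to 5.93% in the control. *Syb* was thus the main synaptobrevin transcript of every sample, the control discs included.

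*Syx1A* encodes syntaxin 1A, a SNARE of the plasma membrane that in flies serves synapses and also other secretion (FBgn0013343, 3R, 24101600 to 24105763, minus strand). It had 229 and 204 CPM in 4-week tumours, 193 and 254 CPM in 8-week tumours and 331 and 367 CPM in 14-week tumours, 211, 174 and 240 CPM in metamorphed cells, and 117, 141 and 189 CPM in the control. All tumours lay above all controls, with the 14-week tumours highest, while metamorphed cells overlapped with both. The log2 fold change was 0.80 (SE 0.23, limma adjusted p = 0.0155) in tumours against control, 0.50 (SE 0.26, adjusted p = 0.152) in metamorphed cells against control and -0.30 (SE 0.23, adjusted p = 0.3) in metamorphed cells against tumours. With the trend of each sample with transcript length removed, the last 2 became 0.92 (adjusted p = 0.016) and -0.73 (adjusted p = 0.022) and passed, and under quantile normalization the last was -0.60 (adjusted p = 0.0356). The call in tumours was lost on CPM of total reads, without the authors' normalization factors (0.48, adjusted p = 0.175), without control replicate 1 (0.64, adjusted p = 0.0782) and without control replicate 2 (0.78, adjusted p = 0.0515).

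Exons of *Syx1A* share 447 bp with *eIF4EHP* on the same strand, 10.7% of its exon length. *eIF4EHP*, which encodes a cap-binding repressor of translation, ranged between 105 and 184 CPM in tumours and between 69.9 and 91.3 CPM in metamorphed cells, against 86.2 to 104 CPM in the control. Its own difference between tumours and control was 0.46 on the log2 scale and did not pass (limma adjusted p = 0.140). In metamorphed cells against tumours its log2 fold change was -0.77 and passed (limma adjusted p = 0.0157). Against control it was -0.30 there and did not pass (adjusted p = 0.399). How reads in the shared exons were counted is not given in the sources used here, and their part in the level of *Syx1A* was not tested.

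Another plasma membrane syntaxin, *Syx4*, had 0 reads in 5 of the 6 tumours and 0.271 CPM in the sixth, 22.0, 8.39 and 5.81 CPM in metamorphed cells, and 0, 2.25 and 1.48 CPM in the control. Metamorphed cells lay above every other sample, with a log2 fold change of 2.50 against control (limma adjusted p = 0.0024) and 3.45 against tumours (adjusted p = 4.23e-05). In tumours against control it was -0.95 (adjusted p = 0.135).

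*Snap25* encodes the plasma membrane SNARE that supplies the remaining helices of the synaptic bundle (FBgn0011288, 3L, 24074180 to 24299205, plus strand). It had 28.3 and 10.7 CPM in 4-week tumours, 47.5 and 60.2 CPM in 8-week tumours and 8.64 and 18.2 CPM in 14-week tumours, 5.48, 2.30 and 0.164 CPM in metamorphed cells, and 14.5, 7.60 and 12.9 CPM in the control. It was highest in the 8-week tumours, the other tumours overlapped with the control, and metamorphed cells lay below all other samples. In metamorphed cells the log2 fold change was -2.07 (SE 0.64, limma adjusted p = 0.0195) against control and -3.04 (SE 0.55, adjusted p = 0.000487) against tumours. In tumours against control it was 0.96 (SE 0.55, adjusted p = 0.194), and in the 8-week tumours alone 2.15 (SE 0.71, adjusted p = 0.0682). Under quantile normalization the difference of all tumours was 1.58 and passed (adjusted p = 0.0285). Against control, the call in metamorphed cells was lost without control replicate 1 (-1.91, adjusted p = 0.0706), without control replicate 3 (-1.98, adjusted p = 0.0649) and without metamorphed replicate 3 (-1.41, adjusted p = 0.0841).

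*Snap24*, its relative in general secretion, did not pass in all tumours or in metamorphed cells against control. In the 14-week tumours it had 12.2 and 25.7 CPM, against 2.01 to 5.10 CPM in the control. Its log2 fold change was 0.98 (limma adjusted p = 0.137) in tumours and 1.23 (adjusted p = 0.1) in metamorphed cells, each against control. Per kb of exon, *Snap25* made up 71.3% and 75.6% of both genes in 4-week tumours, 91.2% and 86.0% in 8-week tumours and 36.4% and 36.3% in 14-week tumours, 38.6%, 14.6% and 1.07% in metamorphed cells, and 69.7%, 75.4% and 70.6% in the control. The share was close to that of the control at 4 weeks, above it at 8 weeks and below it at 14 weeks, with 2 tumours at each age and no test of the share.

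**Figure D2:**
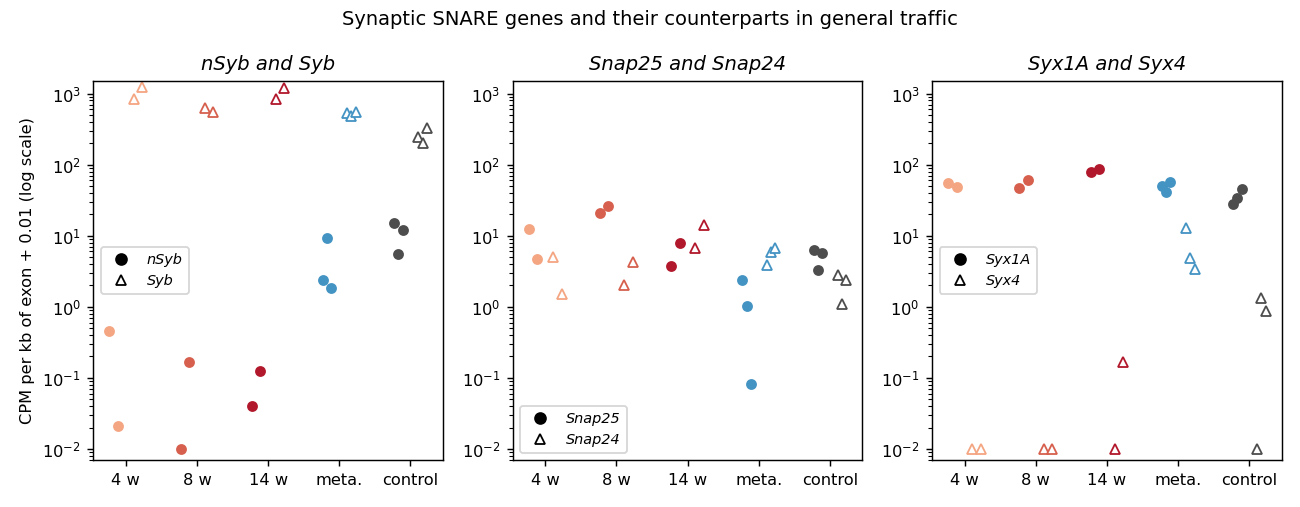
Levels of the synaptic SNARE genes (filled circles) and a counterpart of each in general traffic (open triangles), in CPM per kb of exon plus 0.01 on a log axis, for tumours of 4, 8 and 14 weeks, metamorphed cells and control, each point a sample. *nSyb* reaches at most 0.452 CPM per kb in tumours while *Syb* is at 557 or more there, *Snap25* crosses below *Snap24* in 14-week tumours, and *Syx1A* exceeds *Syx4* in every sample.

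*cac* encodes Cacophony, the pore subunit of the calcium channel that triggers release (FBgn0263111, X, 11931280 to 11985087, minus strand). It had 40.3 and 20.8 CPM in 4-week tumours, 46.1 and 50.2 CPM in 8-week tumours and 61.2 and 33.1 CPM in 14-week tumours, 2.98, 25.3 and 0.542 CPM in metamorphed cells, and 19.6, 12.1 and 20.6 CPM in the control. All tumours lay above all controls, the lowest tumour by a hair, and metamorphed replicate 2 stood 46.6-fold above the lowest of its group. The log2 fold change of 1.18 (SE 0.68, limma adjusted p = 0.194) in tumours against control did not pass in the model of all groups and passed without metamorphed replicate 2 (adjusted p = 0.0477) or with only the tumours and the control in the model (adjusted p = 0.0217). With the transcript length trend removed it was 2.06 and passed (adjusted p = 0.02). Metamorphed cells fell below tumours by 2.91 (SE 0.68, adjusted p = 0.00312). Against control they stood at -1.72 (SE 0.78, adjusted p = 0.0957), and passed at -2.86 without replicate 2 (adjusted p = 0.00173) and at -2.14 on CPM of total reads (adjusted p = 0.0479).

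Both other pore subunits were called lower in tumours. *Ca-alpha1D*, an L-type channel, and *Ca-alpha1T*, a T-type channel, had log2 fold changes of -2.39 and -2.41 in tumours against control (limma adjusted p = 0.0118 and 0.026). *Ca-alpha1T* reached at most 0.0404 CPM in tumours, and had 0.0618, 10.2 and 11.8 CPM in the control, from lowest to highest. Its lowest control thus lay close to the tumours, and its call rests on the other control samples. *Ca-alpha1D* had reads in 1 of the 6 tumours, 4-week replicate 1 with 4.42 CPM, and 6.01, 0.14 and 0.0657 CPM in metamorphed cells, against 10.6, 4.36 and 4.4 CPM in the control. The accessory subunits *stj* and *stol* fell with them, at -2.84 and -3.27 in tumours (adjusted p = 0.00289 and 5.31e-05) and -2.08 and -2.61 in metamorphed cells (adjusted p = 0.0289 and 0.000613). *cac* was thus at 20.8 CPM or more in every tumour, beside *stj* and *stol* at 3.56 CPM or less.

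*VGlut* encodes the vesicular glutamate transporter of motor neurones (FBgn0031424, 2L, 2400295 to 2410662, plus strand). It had 0 and 0 CPM in 4-week tumours, 0.557 and 0 CPM in 8-week tumours and 0 and 0.745 CPM in 14-week tumours, 2.27, 2.35 and 1.63 CPM in metamorphed cells, and 0.392, 0 and 0 CPM in the control, where the only value stood for 1 read. Metamorphed cells were above all other samples at a low level. They averaged 2.08 ± 0.40 CPM (SD, n = 3), with 0.217 ± 0.341 CPM in the 6 tumours and 0.131 ± 0.226 CPM in the 3 control samples. With reads pooled over libraries of unequal depth, the metamorphed level was 117-fold that of the control, with a 95% counting interval of 20.8 to 4626 that rests on the 1 control read of replicate 1, and 12.9-fold that of the tumours (8.30 to 21.0). Both intervals take reads as independent and leave out the spread between samples, so they do not test the difference. The gene passed the filter on low values only through the metamorphed samples, so it had to differ there. Its limma calls and pooled folds in both comparisons carry no weight of their own, and the calls were lost under quantile normalization.

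*ChAT* encodes choline acetyltransferase, which makes acetylcholine (FBgn0000303, 3R, 18705501 to 18732344, plus strand), and shares 606 bp of exon with *VAChT*, the vesicular acetylcholine transporter nested in its first intron. It had 0 reads in all 6 tumours, 0.0178, 9.25 and 0.755 CPM in metamorphed cells, and 2.74, 0 and 0 CPM in the control. Metamorphed replicate 2 held 660 of the 707 reads of its group, and the control value stood for 7 reads of the shallowest library. No comparison passed with all samples. The log2 fold change was 0.76 (SE 0.72, limma adjusted p = 0.430) in metamorphed cells against control and 1.40 (SE 0.62, adjusted p = 0.0832) against tumours, which became 2.08 and passed without metamorphed replicate 1 (adjusted p = 0.0232). A count of 0 allows up to 3 reads, 0.121 to 0.203 CPM in these tumours, so *ChAT* below that level was not detectable.

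Of the other vesicular transporters, *VGAT*, which carries GABA, passed no test and stayed at or below 3.35 CPM in all samples. *Vmat*, which carries monoamines, had 6, 48.4 and 38.6 CPM in metamorphed cells, at most 0.364 CPM in tumours and 0 reads in the control. Of *VGlut*, *VGAT* and *Vmat*, only *Vmat* exceeded 5 CPM in any sample. It passed the filter on low values only through the metamorphed samples, so these levels are given with no test.

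In metamorphed cells, 4 of the 9 genes were called against control, 1 higher and 3 lower, where 40.6% of all genes tested were called, 21.6% higher and 19% lower. Those lower were *Syt1*, *brp* and *Snap25*, and the one higher was *VGlut*, which was tested only because it is high in these cells. Against tumours, 6 of the 9 were called, 4 higher and 2 lower, where 46.4% of all genes were called, 28.5% higher and 18% lower. Here *Syt1*, *nSyb*, *cpx* and, with the same limit, *VGlut* were higher, and *Snap25* and *cac* lower. The 3 comparisons share samples, so the calls of one are not independent of those of another. Of the 9 genes, 6 had their highest metamorphed value in replicate 2, and the share of all genes highest there was not counted. Replicate 2 was also the highest of the 3 for the summed neurone markers (144 CPM, with 133 CPM in replicate 3), developing photoreceptor markers (98.6 CPM), adult photoreceptor markers (2346 CPM) and haemocyte markers (158 CPM). It was the lowest for muscle (111 CPM), fat body (1794 CPM) and eye-antennal disc markers (196 CPM). Glia markers were highest in replicate 3 (1446 CPM).

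**Figure D3:**
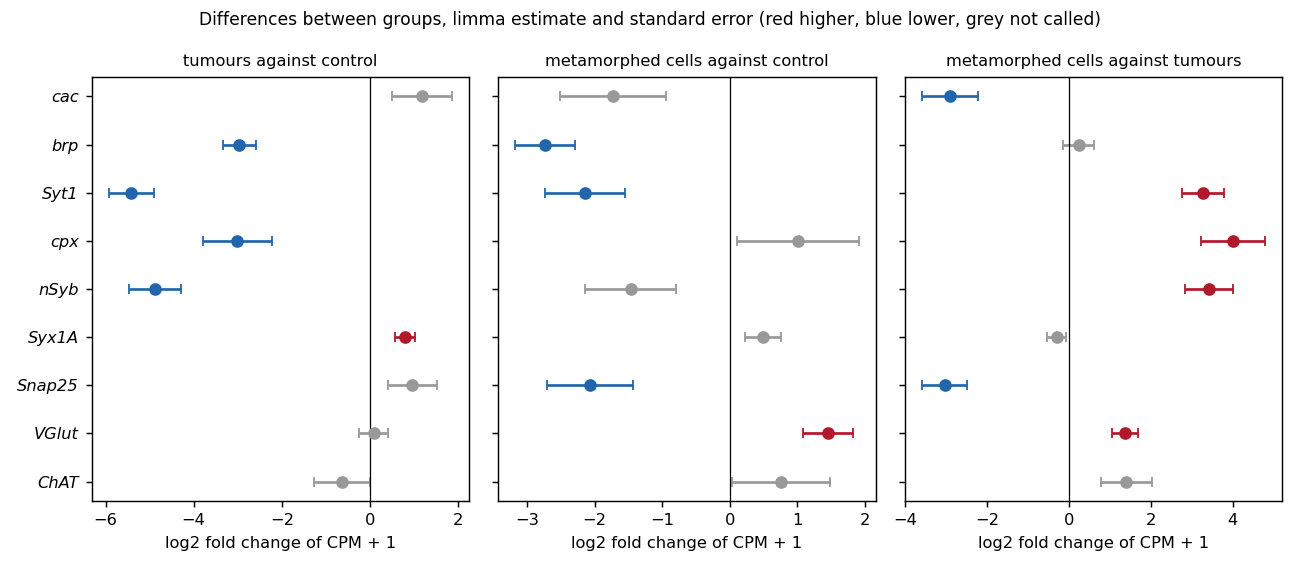
Log2 fold change of CPM + 1 (limma estimate, bar 1 SE) of 9 synaptic vesicle and release genes in tumours against control, metamorphed cells against control and metamorphed cells against tumours, with red for higher, blue for lower and grey for not called. *Syt1*, *nSyb* and *cpx* are blue in tumours against control and red in metamorphed cells against tumours, whereas *brp* is blue against control in both and near 0 between them.

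The age of the tumour changed none of these genes by the test. In 14-week against 4-week tumours, 0 of the 9 genes were called by limma, and 0 had an unadjusted p under 0.05. Over all genes, 0.0983% were called, 0.0688% higher and 0.0295% lower, and 962 had an unadjusted p under 0.05. Changes ran between -0.83 for *brp* (SE 0.54) and 0.69 for *Syx1A* (SE 0.32, adjusted p = 0.537), and *ChAT* had no reads at either age. With 2 tumours an age, the standard errors reached 1.10 on the log2 scale, and changes of that size were not detectable. Against control, *Syt1*, *brp* and *nSyb* were called lower at each of the 3 ages. Of all genes, 34.2% were called at 4 weeks (13.1% higher, 21% lower), 12.5% at 8 weeks (2.7% higher, 9.84% lower) and 26.6% at 14 weeks (11.7% higher, 14.9% lower). *cpx* was called lower at 4 weeks (-2.81, limma adjusted p = 0.0452) and 14 weeks (-3.32, adjusted p = 0.0266) and stood at -2.89 at 8 weeks (adjusted p = 0.0839). *Syx1A* was called higher at 14 weeks (1.25, adjusted p = 0.00774) and stood at 0.56 and 0.60 at 4 and 8 weeks (adjusted p = 0.157 and 0.236). 

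Compared per kb of exon, the levels of the genes spread widely within a group. In tumours the mean was 63.2 CPM per kb for *Syx1A*, 12.7 for *Snap25*, 3.52 for *cac*, 0.985 for *brp*, 0.424 for *cpx*, 0.128 for *nSyb* and 0.0442 for *Syt1*. In metamorphed cells it was 50.1 for *Syx1A*, 5.90 for *cpx*, 4.48 for *nSyb*, 1.5 for *Syt1*, 1.16 for *Snap25*, 1.05 for *brp* and 0.805 for *cac*. In the control it was 35.8 for *Syx1A*, 10.9 for *nSyb*, 8.17 for *Syt1*, 7.46 for *brp*, 5.12 for *Snap25*, 3.36 for *cpx* and 1.46 for *cac*. *Syx1A* led in all 3, and the order below it differed, with *cac* at the third place in tumours and last of these 7 in the other groups. Apart from *Syx1A*, which lay above all others, and from *nSyb* above *Syt1* in metamorphed cells, neighbours in each order overlapped between samples.

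The remaining genes of the presynapse were read from lists written from general knowledge. Of 12 active zone and priming genes, 9 fell and 3 did not pass in tumours against control, with a median log2 fold change of -2.03 beside -0.19 over all genes tested, of which 21.6% fell. Among the 12, *Rbp* was tested only through its level in the control. *Cadps*, which primes dense-core vesicles, fell furthest, by 4.76 (limma adjusted p = 4.66e-05), and *Liprin-alpha* least, by 1.04 (adjusted p = 0.0411). In metamorphed cells against control, 7 of the 12 fell, the median was -2.07 beside -0.03 over all genes, of which 19% fell, and *unc-13*, the main priming factor, fell by 2.96 (adjusted p = 1.87e-05). *unc-13* had 29.0 to 43.2 CPM in metamorphed cells and 128 to 310 CPM in tumours, against 268 to 330 CPM in the control, and its difference of -0.53 in tumours did not pass (adjusted p = 0.196). *Rop*, the partner of syntaxin 1A, fell by 1.64 in tumours (adjusted p = 0.00403) and was 2.43 higher in metamorphed cells than in tumours (adjusted p = 0.000105).

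Of 11 vesicle proteins tested, 5 fell in tumours and 6 did not pass, and in metamorphed cells 5 fell, 1 rose and 5 did not pass, each against control. Over all genes, 21.6% fell in tumours, and in metamorphed cells 19% fell and 21.6% rose. Among the vesicle proteins, *Syn* and *Sytbeta* were tested only through their levels in the control. The vesicle GTPase *Rab27* had 3.82, 0 and 0 CPM in metamorphed cells and 26.8 to 52.9 CPM in tumours, against 13.1 to 20.4 CPM in the control. Its log2 fold change was -4.46 in metamorphed cells against tumours (limma adjusted p = 7.54e-06), and its difference of 1.10 between tumours and control did not pass (adjusted p = 0.106). All 4 calcium channel subunits tested besides *cac* fell in tumours, and 2 of them fell in metamorphed cells, beside the same shares of all genes. Among these subunits, *stol* was tested only through its level in the control. All 4 genes of neuropeptide release tested fell in tumours against control, and all 4 exceeded the tumours in metamorphed cells, where 28.5% of all genes did. Of these, the prohormone convertase *amon* fell by 4.85 in tumours against control (adjusted p = 1.88e-05).

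Next came the genes of general traffic. Of 16 SNAREs and SNARE recycling genes of general traffic, 4 rose in tumours, 5 rose in metamorphed cells, and 0 fell in either, each against control. Among all genes tested, 14.4% rose in tumours and 21.6% in metamorphed cells. The medians of the list were 0.28 and 0.80, beside -0.19 and -0.03 over all genes tested. Of 13 genes of vesicle endocytosis tested, which every cell also uses, 1 rose and 5 fell in tumours, and 3 rose and 1 fell in metamorphed cells, each against control. Of all genes, 14.4% rose and 21.6% fell in tumours, and 21.6% rose and 19% fell in metamorphed cells. *stnA* and *stnB* were at 0 reads in all samples. *Amph*, which in flies organises muscle and photoreceptor membranes, had the largest increase of the tested endocytosis genes in metamorphed cells against control, with 126 to 197 CPM, against 13.3 to 26.4 CPM in the control (log2 fold change 3.01, limma adjusted p = 9.76e-05).

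**Figure D4:**
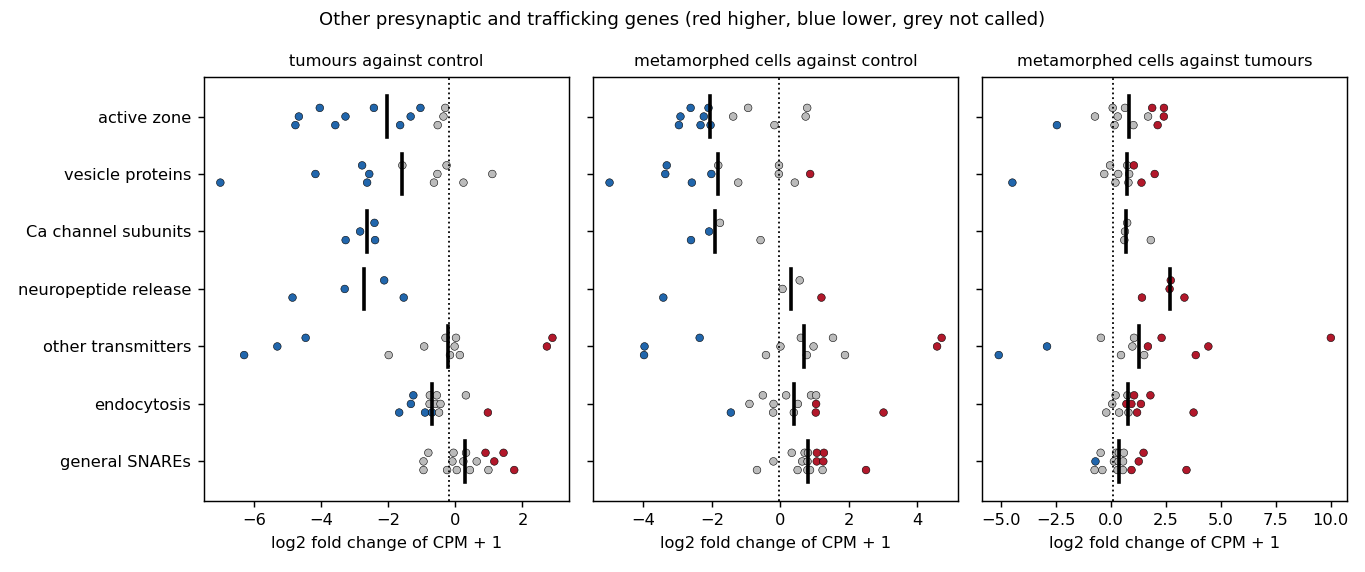
Log2 fold change of CPM + 1 of each tested gene (points, red for higher, blue for lower, grey for not called) in 7 lists of presynaptic and trafficking genes, in tumours against control, metamorphed cells against control and metamorphed cells against tumours, with the list median as a black bar and the median of all genes tested as a dotted line. Against control, the active zone genes have medians of -2.03 (tumours) and -2.07 (metamorphed cells), and the general SNAREs 0.28 and 0.80.

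The sums of neurone and developing photoreceptor markers were lower in tumours and metamorphed cells than in the control. The neurone markers summed to between 56.8 and 208 CPM in tumours and between 55.4 and 144 CPM in metamorphed cells, against 501 to 918 CPM in the control. Of the 7, 6 fell in tumours and 5 in metamorphed cells, where 21.6% and 19% of all genes fell. *elav*, the pan-neuronal marker, fell by 1.69 in tumours and by 2.08 in metamorphed cells on the log2 scale (limma adjusted p = 0.00151 and 0.000611) and kept 24.4 to 51.5 CPM in tumours and 19.9 to 37.5 CPM in metamorphed cells, against 76.8 to 162 CPM in the control. The developing photoreceptor markers summed to between 7.74 and 25.0 CPM in tumours and between 30.8 and 98.6 CPM in metamorphed cells, against 315 to 481 CPM in the control, with all 6 lower in tumours. The eye-antennal disc markers were lower too, at 105 to 235 CPM in tumours and 196 to 221 CPM in metamorphed cells. In the control they summed to between 1200 and 1491 CPM. Of these 7 markers, 6 fell in tumours and 5 in metamorphed cells, beside the same shares of all genes.

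The sums of adult photoreceptor, fat body and haemocyte markers were highest in the metamorphed cells. The adult photoreceptor markers summed to between 49.1 and 93.0 CPM in tumours, where *ninaE*, *trp* and *trpl* had 0 reads, and between 530 and 2346 CPM in metamorphed cells, against 178 to 217 CPM in the control. Of the 9 markers, 7 rose and 2 fell in metamorphed cells against control, where 21.6% of all genes rose and 19% fell. *trp* and *trpl*, at 0 reads in tumours and control, were tested only through the metamorphed cells. The same holds for *ninaE*, so all of these had to differ there. The most abundant in tumours and control was *norpA*, at 68.7 and 114.5 CPM on average. Fat body markers summed to between 1794 and 8087 CPM in metamorphed cells and at most 13.6 CPM in tumours, against 127 to 887 CPM in the control. Haemocyte markers summed to between 62.4 and 158 CPM in metamorphed cells and at most 9.52 CPM in tumours, against 12 to 26.3 CPM in the control. Muscle markers summed to between 164 and 1097 CPM in tumours and between 111 and 967 CPM in metamorphed cells, against 31.4 to 54.1 CPM in the control. In tumours this sum was carried by *Mlc2*, at 358 CPM on average against 14.5 CPM in the control. Of the 6 muscle markers, 1 rose, 1 fell and 4 did not pass in tumours, with a median log2 fold change of -0.50. Of all genes, 14.4% rose and 21.6% fell there. The glia sum was nearly all *nrv2*, at 971, 1081 and 932 CPM on average in tumours, metamorphed cells and control. Of 5 glia markers tested, 3 fell in tumours, beside the same share of all genes, with a median log2 fold change of -3.38. Among them was *repo*, at 0.247 CPM in tumours against 11.9 CPM in the control. The part of any of these cells in the levels of the synaptic genes was not tested.

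**Figure D5:**
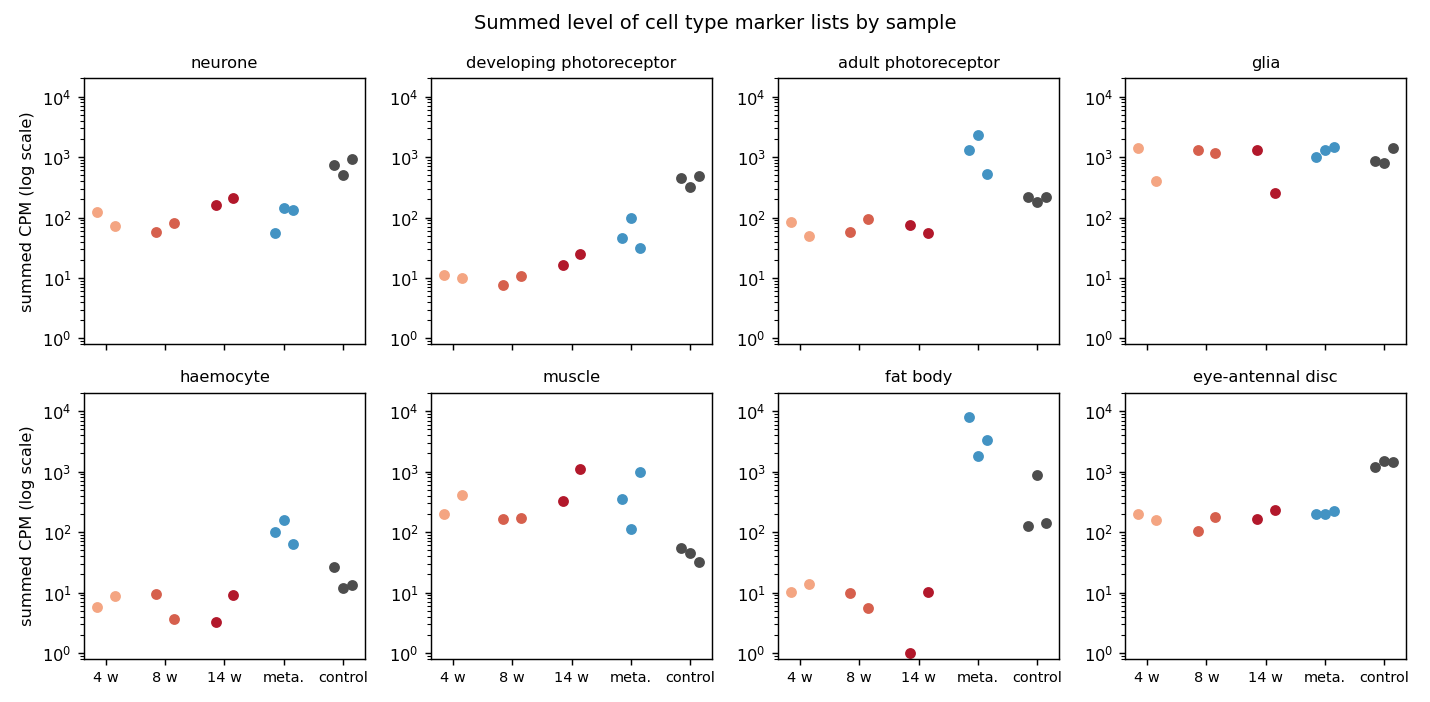
Summed CPM of 8 cell type marker lists in each sample (points, log axis) for tumours of 4, 8 and 14 weeks, metamorphed cells and control. Neurone markers lie between 501 and 918 CPM in the control and at or below 208 CPM elsewhere, while adult photoreceptor and fat body markers are highest in metamorphed cells.

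The genes whose mean log2 changes against control, over the 3 tumour ages and the metamorphed cells, lay nearest to those of a synaptic gene were found by the root mean square difference over these 4 values. For *Syt1* the nearest was *CG10211* (0.391) and for *nSyb* it was *OtopLa* (0.217), with *btsz*, a synaptotagmin-like gene, at the third place for both at 0.456 and 0.3. *CG8854* lay nearest to *brp* (0.161), *CG11029* to *cpx* (0.249), *Fcp3C* to *Syx1A* (0.112) and *Srp54k* to *VGlut* (0.097). The match of *VGlut* carries no weight, since that gene was tested only because it is high in metamorphed cells. *Myc*, the growth regulator, lay nearest to *cac* (0.217), with changes of 0.67, 1.14 and 1.17 at 4, 8 and 14 weeks and -1.5 in metamorphed cells. For *Snap25* the nearest was FBgn0030170 (0.397), a gene without a symbol here, and *Mcm6*, a subunit of the replicative helicase, was second (0.527). The 4 changes share the control samples, and the likeness describes these 12 samples only.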

How the data were processed

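The authors aligned reads to dm6 with TopHat2 2.0.12 and Bowtie2 2.2.3 and deposited log2 CPM of 12 samples in a single table, made with edgeR 3.16.5 in R 3.3.1 with library normalization. Read counter and strand setting are not given in the sources used here. Libraries were SMARTSeq2 and NexteraXT, without molecular identifiers, so intervals cover counting error only. Removing a prior count of 2 from the deposited log2 values gave whole reads, within 0.05 read, for 100.0% of values, and linear CPM. Genes at 1 CPM or more in at least 2 samples (10177) entered limma 3.58.1 (R 4.3.3) as log2(CPM + 1), in one model of 5 groups with a mean-variance trend, two-sided, with Benjamini-Hochberg adjustment over all genes and a threshold of 0.05. Tumours stand for the mean of the 3 ages. This scale understates changes of low genes. CPM per kb and coordinates used the exons of Ensembl release 115 of BDGP6, which gave 17215 identifiers a symbol. In simulated data for metamorphed cells against control (9629 genes tested), 91.9% of 197 genes changed by 3 on the log2 scale were called, and 5 of 9432 unchanged ones. The simulation gave every gene the same dispersion and held no outlying samples, so these rates need not hold for the real samples. Replicates of a group differed beyond sampling noise, with a chi-square of at least 66.8 per degree of freedom. The text names all members, set counterparts, called genes at the ends of each list, markers at 0 reads and some of the 3 nearest genes by pattern. *stnA*, *stnB*, *Syt12*, *Syt14*, *Sytbeta*, *nrv2*, *repo*, *Mlc2*, *norpA*, *Rbp* and *Syn* were named after their values were seen. Members and lists were chosen with earlier results of these data known. Alternatives covered the pseudocount, filter, scaling, transcript length, replicate block, samples in the model, limma-voom, threshold and each sample left out. Promoter motifs were not run, and no sequences are given.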

Additional observations from a re-analysis of the deposited data

Results flagged for a closer look

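Of the 8 genes with any reads in tumours, 2 had a tumour far above the other 5 by Dixon's gap ratio, past its 95% critical value for 6 samples. For normally distributed values chance passes it about 1 time in 20, a rate that need not hold for CPM at or near 0. In 4-week tumour replicate 1 *Syt1* stood at 1.80 CPM, with the next tumour at 0.0677 CPM (ratio 0.962), and *nSyb* at 1.84 CPM, with the next at 0.647 CPM (ratio 0.648). The same tumour was the highest of the 6 for 4 of the genes, *Syt1*, *nSyb*, *brp* and *cpx*. Groups of 3 samples were not looked at in this way.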

How the results depend on the processing

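Counts of the 9 genes called were 5 in tumours against control, 4 in metamorphed cells against control, 6 in metamorphed cells against tumours and 0 in 14-week against 4-week tumours. Leaving out each sample in turn gave 3 to 6, 3 to 6, 6 to 7 and 0, with the 3 in tumours reached without control replicate 1, and a threshold of 0.01 left 2 in metamorphed cells against control. The replicate numbers do not pair the samples (mean correlation of deviations -0.02 for the same number and 0.01 for others, 5 of 12 samples closest to their own number), and with the replicate block the counts were again 5, 4, 6 and 0, with 0 calls changed. No called difference of these genes reversed under the alternatives run. Among those not called, *VGlut* in tumours against control, at 0.08, became -0.014 with the replicate block and ran between -0.053 and 0.24 with a sample left out. *ChAT* in tumours became 0.20 with the length trend removed, and *Syx1A* in metamorphed cells against control became -0.011 on CPM of total reads. *brp* in metamorphed cells against tumours became -0.27 under quantile normalization, -0.10 with the length trend removed and -0.18 with that and the block, and ran between -0.024 and 0.49 with a sample left out. In 14-week against 4-week tumours, leaving out a sample gave -1.41 to 0.076 for *Syt1*, -1.14 to 0.30 for *nSyb*, -2.22 to 1.20 for *cpx* and -1.11 to 0.21 for *Snap25*, and *ChAT*, with 0 reads, had no fold. The cause was not tested. Over all genes, 3664 calls in tumours became 2441 without control replicate 1 and 2093 at a threshold of 0.01, the 4132 in metamorphed cells against control became 2734 at that threshold, and the 10 in 14-week against 4-week tumours ran between 0 and 20. In tumours against control the share of higher calls was 39.9%, against 55.4% under quantile normalization, 26% on CPM of total reads and 50.3% with the length trend removed, with medians of all genes of -0.19, 0.07, -0.43 and 0.02. In metamorphed cells against control it was 53.2%, against 36.3% on CPM of total reads, and against tumours 61.3%, against 43.4% under quantile normalization. Depth limits the rest, since the shallowest control library holds 2072498 reads and groups hold 2 or 3 samples.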

Other observations

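Of 12 other transmitter enzymes and transporters tested, 2 rose and 3 fell in tumours and 2 rose and 3 fell in metamorphed cells, each against control, where 36% and 40.6% of all genes were called, and those named here were chosen from the called ones at the ends of the list. *Tdc2*, the tyrosine decarboxylase of tyramine and octopamine neurones, ranged between 12.3 and 92.3 CPM in tumours and had 0 reads in metamorphed cells, against 2.10 to 7.84 CPM in the control, and *Tbh*, which turns tyramine into octopamine, ranged between 3.60 and 26.4 CPM in tumours and at most 0.224 CPM in metamorphed cells, against at most 0.392 CPM in the control. *Tdc2* rose in tumours against control by 2.73 on the log2 scale (limma adjusted p = 0.000407). *Tbh* passed the filter on low values only through the tumours, so its levels are given with no test. The counts above still include it among the 12 tested. They also include *Vmat* and others, which passed the filter only through the metamorphed cells. *ple*, the tyrosine hydroxylase, which also serves pigment and cuticle formation, ranged between 2240 and 4171 CPM in metamorphed cells and at most 8.25 CPM in tumours, against 11.5 to 1070 CPM in the control. *Ace*, which breaks down acetylcholine, reached at most 0.089 CPM in tumours and 3.11 to 5.85 CPM in metamorphed cells, against 40.6 to 126 CPM in the control, and fell by 6.29 in tumours and by 3.97 in metamorphed cells (adjusted p = 6.18e-07 and 4.24e-05). *CarT*, a carcinine transporter of photoreceptors, fell, with log2 fold changes of -4.46 in tumours and -3.98 in metamorphed cells (adjusted p = 0.000471 and 0.00199).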
